A study of Homo sapiens with 8 samples.

Results

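The 10 genes of cellular iron storage, uptake and export described here were chosen by name as members of the pathway, with earlier results of these data known. They are FTH1, FTL and NCOA4 for storage, TFRC, TFR2 and SLC11A2 for uptake, SLC40A1 and HAMP for export and its control, and ACO1 and IREB2 for the sensing of iron. All 10 were found among the 60230 genes of the count table, and all 10 were among the 13400 genes with enough counts to be tested. The cells were HepG2, a human liver cancer line, engineered to overexpress the cytochrome P450 enzyme CYP2C19 and kept under blasticidin, and every group carried this transgene. They received the solvent DMSO or 1 of 3 antioxidants used in plastics, called compounds 4, 5 and 6 (metylcresol, tetrabut and cyclohexil in the sample labels), for a day. The 8 libraries form 4 groups, and the 2 libraries of a group, labelled day 1 and day 2, are taken here as replicates 1 and 2. Compounds 4 and 6 are bisphenols joined through a methylene bridge that carry tert-butyl and cyclohexyl groups, respectively, whereas compound 5 has a methyl group on its bridge and tert-butyl groups in place of the methyl groups on its rings. Each compound was given at its own half-inhibitory concentration, so the concentrations differed, although the paper calls these 3 values rather comparable. They came from a growth assay with a longer exposure than that used for RNA. An effect of structure and an effect of concentration cannot be told apart. All samples come from 1 engineered line, and the p-values measure only the spread between these samples.

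Iron is taken up by hepatocytes as transferrin bound to the transferrin receptor TFRC, leaves the endosome through the transporter SLC11A2 (DMT1), and is stored inside shells built from ferritin heavy (FTH1) and light (FTL) chains. The ferritin receptor NCOA4 carries these shells to the lysosome, where iron is released again. Ferroportin, encoded by SLC40A1, is the exporter of iron from cells, and the liver hormone hepcidin, encoded by HAMP, binds ferroportin and causes its degradation. When cells are short of iron, the iron regulatory proteins ACO1 (IRP1) and IREB2 (IRP2) bind hairpins in mRNAs called iron-responsive elements. Binding upstream of the coding sequence blocks translation, as in ferritin and ferroportin, and binding downstream of it protects the mRNA from decay, as in TFRC. Transcription of HAMP is raised by bone morphogenetic proteins acting through SMAD factors and by interleukin-6 acting through STAT3. The ferritin genes and SLC40A1 also belong to the known targets of the antioxidant response factor NRF2.

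The hairpins are shown because the iron regulatory proteins bind mRNAs at such sites. A search for an unpaired C, a stem of 5 base pairs and the loop CAGTGN without a G at its end found a match in an untranslated region of 4 of the 10 members. Of 206694 annotated transcripts of all genes, 0.408% had a match anywhere, a share of transcripts and not of genes. The 4 members were already named above as holding such elements, so their matches are no new evidence. Each is printed 5′ to 3′ as DNA on the strand of the mRNA, with the loop in capitals, from GENCODE 29 transcripts on GRCh38. The FTH1 hairpin lies on the minus strand at chr11:61967575-61967601, the FTL hairpin on the plus strand at chr19:48965336-48965362 and the SLC40A1 hairpin on the minus strand at chr2:189580662-189580688, all in the 5′ untranslated region. TFRC holds 4 matches in its 3′ untranslated region on the minus strand of chromosome 3, listed in the order of the mRNA and found at chr3:196050980-196051006, chr3:196050576-196050602, chr3:196050511-196050537 and chr3:196050464-196050490.
FTH1: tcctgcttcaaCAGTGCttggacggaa
FTL: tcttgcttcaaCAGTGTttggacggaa
SLC40A1: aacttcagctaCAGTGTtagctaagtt
TFRC, match 1: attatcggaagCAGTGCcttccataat
TFRC, match 2: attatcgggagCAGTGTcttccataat
TFRC, match 3: tgtatcggagaCAGTGAtctccatatg
TFRC, match 4: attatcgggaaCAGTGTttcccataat
A match describes letters only, and the absence of a match in the other members says nothing about binding to them.

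Between 9791659 and 17814595 reads per sample were counted on genes. Levels are in CPM, the count of a gene scaled to a common library total after TMM normalization. Unless another test is named, adjusted p-values come from the quasi-likelihood test of edgeR in a fit of all 8 samples, with Benjamini-Hochberg adjustment over the 13400 genes tested, and a gene was called at an adjusted p under 0.05. The overexpressed CYP2C19 had between 16.4 and 27.7 CPM in the DMSO samples and between 21.2 and 52.8 CPM in the treated samples, and these counts do not separate the transgene from the cell's own gene. All 8 hepatocyte markers examined (ALB, TTR, APOA1, APOB, AFP, SERPINA1, FGB and HNF4A) were expressed. Their summed level was between 44536 and 47855 CPM under DMSO, 30935 and 37450 under compound 4, 38021 and 39082 under compound 5, and 33586 and 39180 under compound 6. Of 9 markers of leukocytes, endothelium, stroma and red cells, PTPRC had 0 counts in every library and 3 had enough counts to be tested. The summed level of these 9 was between 34.2 and 40.6 CPM under DMSO, 48.4 and 51.4 under compound 4, 27.9 and 32.7 under compound 5, and 39.0 and 43.5 under compound 6. The part of these marker levels in the results below was not tested. In such bulk samples, fewer cells of a kind and less RNA per cell cannot be told apart.

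Under DMSO the storage genes dominated the pathway. Per kilobase of transcript, FTL had 8056 ± 458 CPM (SD, n = 2) and FTH1 2021 ± 31.3, followed by NCOA4 at 203 ± 2.26 and TFRC at 137 ± 8.12. The remaining members lay far lower, with HAMP at 30.0 ± 23.4 CPM per kilobase, SLC11A2 at 23.4 ± 0.34, TFR2 at 19.9 ± 3.58, IREB2 at 17.8 ± 0.951, SLC40A1 at 8.93 ± 2.45 and ACO1 at 6.71 ± 0.0212. Some neighbors in the lower part of this order were not separated by their spread. The HAMP libraries, at 46.5 and 13.5 CPM per kilobase, lay on both sides of SLC11A2, TFR2 and IREB2, and SLC40A1 and ACO1 differed by less than the SD of SLC40A1. By CPM alone, FTL ranked 7 and FTH1 28 among the 13400 genes, and the 2 ferritin chains together took between 0.921% and 1.28% of all counts in a library. Light chain mRNA exceeded heavy chain mRNA to a like extent in every group, at a per-kilobase ratio of 3.98 ± 0.165 under DMSO, 4.20 ± 0.104 under compound 4, 3.96 ± 0.495 under compound 5 and 4.17 ± 0.0183 under compound 6.

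**Figure D1:**
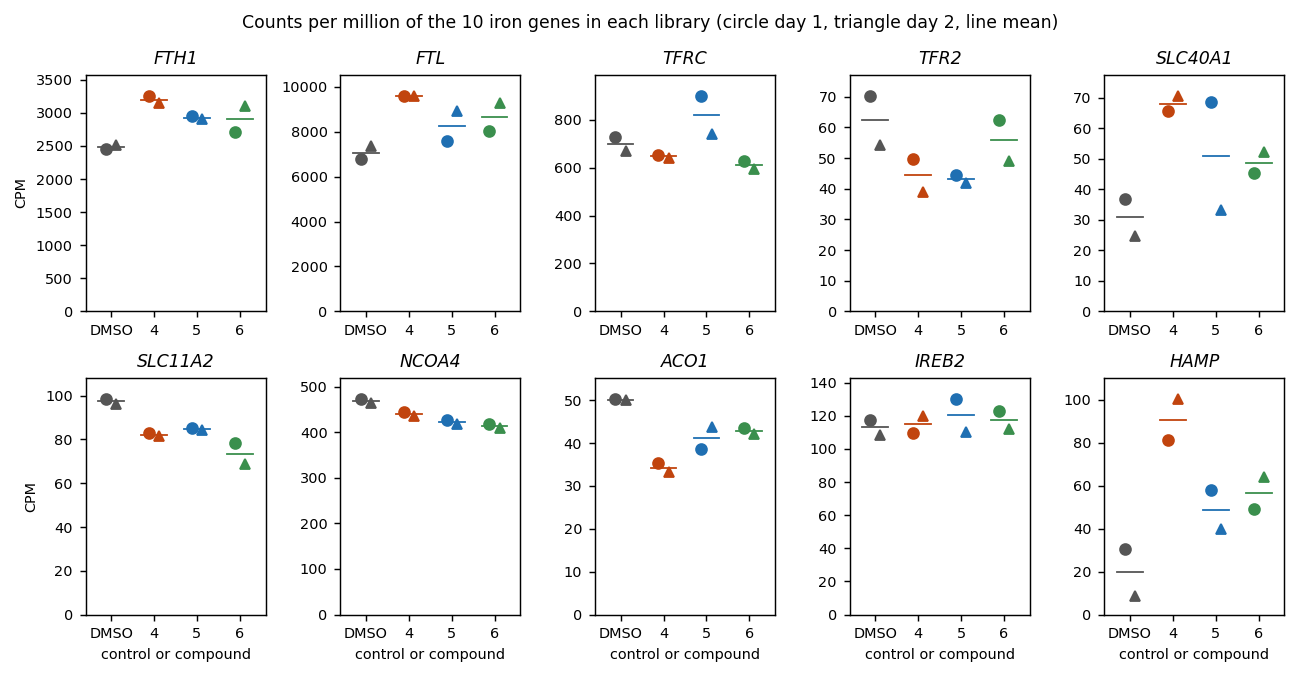
Level of each of the 10 genes in CPM (vertical axes, each from 0) in cells treated with DMSO or compound 4, 5 or 6 (horizontal axes), with a circle for the day 1 library, a triangle for the day 2 library and a line for the group mean. Both ferritin chains and HAMP lay above the DMSO libraries in all 6 treated libraries, and SLC11A2, NCOA4 and ACO1 lay below them. The share of all tested genes placed in this way was not counted, and the compounds share the same DMSO libraries.

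Relative to DMSO, compound 4 raised FTH1, FTL, SLC40A1 and HAMP and lowered ACO1, so that 5 of the 10 members passed the threshold. Of all genes tested, 9.51% passed it under compound 4, 5.6% upwards and 3.91% downwards. Under compound 5, 0 members passed in edgeR, against 8.3% of all genes tested (5.35% upwards and 2.95% downwards), and under compound 6, 0 members passed, against 0.575% (0.493% upwards and 0.0821% downwards). Without adjustment, 7, 5 and 4 members had a p under 0.05 for compounds 4, 5 and 6, beside 27.5%, 28.4% and 18.6% of all genes tested, and the Wald test of DESeq2 called 5, 0 and 0. The median log2-fold change of the 10 members was −0.03, 0.16 and −0.05, beside 0.01, 0.00 and 0.02 over all genes tested, since members moved in both directions. The 3 comparisons share the same DMSO libraries. Below, some genes are said to have all treated libraries above or below those of DMSO. The share of all tested genes placed in this way was not counted.

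**Figure D2:**
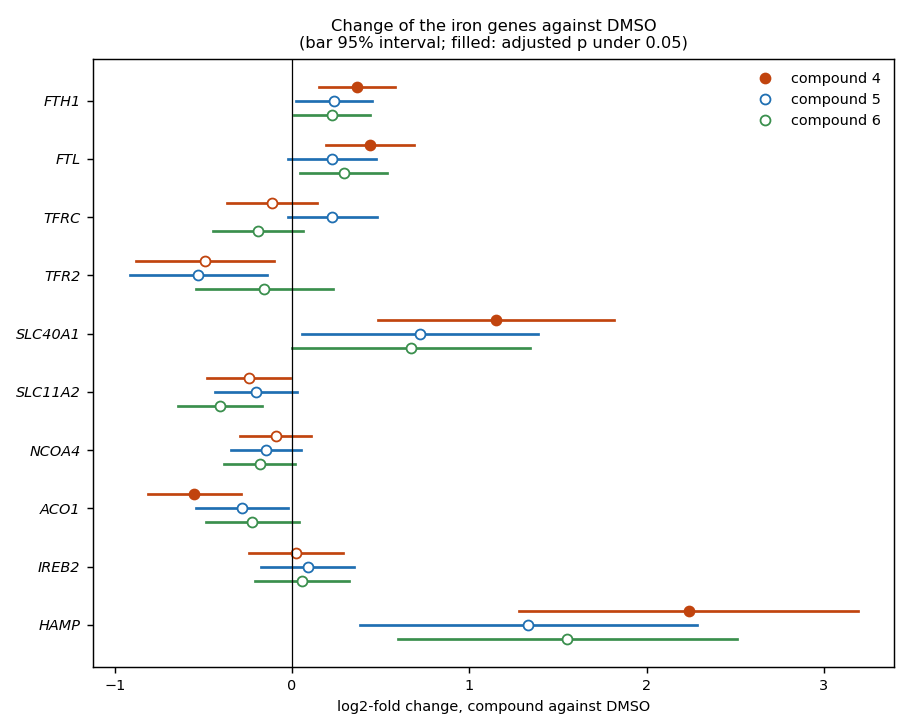
Log2-fold change of each of the 10 genes under compound 4 (orange), 5 (blue) or 6 (green) against DMSO on the horizontal axis, with bars for the 95% interval from the edgeR fit and filled symbols for an adjusted p under 0.05. FTH1, FTL, SLC40A1, ACO1 and HAMP are filled for compound 4, and no symbol is filled for compound 5 or 6.

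Among the storage genes, the mRNAs of both ferritin chains rose under compound 4. The proteins of the 10 genes and the iron in the cells were not measured. FTH1 (ENSG00000167996, chr11:61959718-61967660, minus strand) had 2457 and 2511 CPM in DMSO replicates 1 and 2, 3254 and 3144 under compound 4, 2950 and 2900 under compound 5, and 2708 and 3101 under compound 6. All 6 treated libraries were above both DMSO libraries. The log2-fold change was 0.36 ± 0.10 (SE, adjusted p = 0.0431) under compound 4, 0.24 (adjusted p = 0.144) under compound 5 and 0.23 (adjusted p = 0.251) under compound 6 in edgeR. FTL (ENSG00000087086, chr19:48965301-48966878, plus strand) had 6789 and 7357 CPM under DMSO, 9590 and 9593 under compound 4, 7607 and 8929 under compound 5, and 8043 and 9270 under compound 6. Here too every treated library was above both DMSO libraries, and the replicates of compound 4 lay close together and above the others. The log2-fold change of FTL was 0.44 ± 0.11 (adjusted p = 0.0374) under compound 4, 0.23 (adjusted p = 0.208) under compound 5 and 0.29 (adjusted p = 0.198) under compound 6. The calls of both chains under compound 4 were lost when either DMSO or either compound 4 library was left out, with adjusted p between 0.0967 and 0.217, although the log2-fold changes stayed between 0.33 and 0.50. The call of FTH1 was also lost without either compound 6 library (0.0576 and 0.0509) and in a fit of only the 4 samples compared (0.0708). With at least 10 counts required in every sample, the adjusted p of edgeR was 0.056 for FTH1 and 0.0504 for FTL.

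Reads of the ferritin chains can also match their processed pseudogenes, which are near copies. Of 41 ferritin pseudogenes in the table, 16 had at least 1 count and 5 were tested, and their counts together made up between 0.152% and 0.218% of those of the parent genes. FTH1P2, FTH1P7 and FTH1P5 had the highest levels, with means of 7.83, 4.40 and 3.36 CPM over all libraries. The 5 tested pseudogenes did not pass the threshold in the comparisons with DMSO, where their log2-fold changes were between −0.70 and 0.83 and 1 of the 5 had an unadjusted p under 0.05 each time. FTH1 also overlaps BEST1 on the opposite strand. TFRC overlaps a pseudogene and a small RNA gene and IREB2 an antisense gene on the opposite strand, and SLC11A2 overlaps a small RNA gene on its own strand, so their counts carry some uncertainty.

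NCOA4 (ENSG00000266412, chr10:46005088-46030714, minus strand), the receptor for the degradation of ferritin, differed little between libraries. It had 473 and 465 CPM under DMSO, 445 and 435 under compound 4, 428 and 418 under compound 5, and 417 and 409 under compound 6. All 6 treated libraries were below both DMSO libraries, but the log2-fold changes of −0.09 (adjusted p = 0.547), −0.15 (0.298) and −0.18 (0.308) did not pass the threshold of edgeR. Their 95% intervals together ran from −0.38 to 0.11.

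The uptake genes did not pass the threshold under any of the 3 compounds. TFRC (ENSG00000072274, chr3:196027183-196082189, minus strand) had 729 and 670 CPM under DMSO, 652 and 641 under compound 4, 899 and 739 under compound 5, and 628 and 595 under compound 6. The mRNA of the receptor thus lay above the DMSO libraries in both compound 5 libraries and below them in those of compounds 4 and 6. The log2-fold changes were −0.11 (adjusted p = 0.563), 0.23 (0.214) and −0.19 (0.39), each with an SE of 0.11. TFR2 (ENSG00000106327, chr7:100620416-100642779, minus strand), a second receptor that in hepatocytes takes part in the sensing of transferrin, had 70.2 and 54.3 CPM under DMSO, 49.6 and 39.0 under compound 4, 44.4 and 41.9 under compound 5, and 62.5 and 49.2 under compound 6. Day 1 was above day 2 in each of the 4 groups, and the libraries of compounds 4 and 5 were below both DMSO libraries. The log2-fold change of TFR2 was −0.49 ± 0.17 (adjusted p = 0.105) under compound 4, −0.53 ± 0.17 (0.0868) under compound 5 and −0.16 ± 0.17 (0.67) under compound 6. With the day as a replicate block in edgeR, TFR2 passed the threshold under compound 4 (adjusted p = 0.0295) and compound 5 (adjusted p = 0.0307).

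SLC11A2 (ENSG00000110911, chr12:50979401-51028566, minus strand) had 98.4 and 96.4 CPM under DMSO, 83.0 and 81.5 under compound 4, 85.0 and 84.2 under compound 5, and 78.3 and 68.6 under compound 6. The treated libraries were all below the DMSO libraries. The log2-fold changes were −0.24 (adjusted p = 0.167), −0.20 (0.229) and −0.41 (0.1), and the last reached an adjusted p of 0.0394 when only the 4 samples of compound 6 and DMSO were fitted. At the level of pairs of genes, the ratio of FTH1 to TFRC per kilobase was 14.8 ± 1.11 (SD, n = 2) under DMSO, 20.6 ± 0.253 under compound 4, 15.0 ± 1.89 under compound 5 and 19.8 ± 2.66 under compound 6. In this ratio, libraries of compounds 4 and 6 lay above those of DMSO, whereas those of compound 5 overlapped them. The ratios are descriptions without a test.

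The exporter gene SLC40A1 (ENSG00000138449, chr2:189560579-189583758, minus strand) had 36.7 and 24.8 CPM under DMSO and 65.5 and 70.5 CPM under compound 4. It was at 68.6 and 33.2 CPM under compound 5 and at 45.3 and 52.1 CPM under compound 6. The libraries of compounds 4 and 6 lay above both DMSO libraries, whereas replicate 2 of compound 5 fell between the values of DMSO. SLC40A1 was 2.22-fold higher under compound 4, a log2-fold change of 1.15 ± 0.30 (adjusted p = 0.0404), and had log2-fold changes of 0.72 ± 0.30 (0.147) under compound 5 and 0.67 ± 0.30 (0.27) under compound 6. The value of compound 5 depended on which of its replicates was kept, at 1.17 (adjusted p = 0.0116) without replicate 2 and 0.11 (0.827) without replicate 1, and it was 0.47 (0.516) without DMSO replicate 2. Under compound 6, it was 0.41 (0.751) without DMSO replicate 2. Under compound 4, the log2-fold change was 0.89 (adjusted p = 0.284) without DMSO replicate 2 and 1.45 (0.0713) without DMSO replicate 1, and the call was also lost without either compound 4 library (0.0898 and 0.176) or either compound 6 library (0.0584 and 0.0563).

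HAMP (ENSG00000105697, chr19:35280716-35285143, plus strand) showed the largest change of the 10 genes under each compound. It had 30.3 and 8.79 CPM under DMSO, 81.3 and 100.1 under compound 4, 57.8 and 39.6 under compound 5, and 49.3 and 63.8 under compound 6, from between 105 and 1317 counts per library. All 6 treated libraries were above both DMSO libraries, but the DMSO libraries themselves differed more from each other than those of any other group. HAMP was 4.71-fold higher under compound 4, a log2-fold change of 2.24 ± 0.43 (adjusted p = 0.0153). The log2-fold changes of 1.33 ± 0.42 (0.0798) under compound 5 and 1.55 ± 0.43 (0.111) under compound 6 did not pass the threshold in edgeR. The size of each change depended on the low DMSO replicate 2. Without it the log2-fold change under compound 4 was 1.58 (adjusted p = 0.059), and without DMSO replicate 1 it was 3.36. The call was also lost without compound 4 replicate 2 (adjusted p = 0.0913). Without DMSO replicate 1, HAMP passed the threshold under compound 5 as well, at 2.45 (0.0218), and under compound 6, at 2.67 (0.0413), whereas without DMSO replicate 2 the values were 0.68 (0.246) and 0.90 (0.438). Within day 1 the log2 difference from DMSO was 1.41, 0.92 and 0.69 for compounds 4, 5 and 6, and within day 2 it was 3.44, 2.11 and 2.79.

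The window of 250 bases before the start of HAMP is shown because the control of this gene acts at its promoter. It was taken from RefSeq (GRCh38.p14, chr19:35282278-35282527, plus strand), in which 8 of the 10 members were matched by symbol (all but FTH1 and TFR2), some with more than 1 start. The HAMP start in RefSeq lies inside the longer gene annotated by GENCODE. Capitals mark the letters GGCGCC, as in SMAD binding elements, and TTCTTGGAA, a match to the STAT pattern TTCNNNGAA.
HAMP: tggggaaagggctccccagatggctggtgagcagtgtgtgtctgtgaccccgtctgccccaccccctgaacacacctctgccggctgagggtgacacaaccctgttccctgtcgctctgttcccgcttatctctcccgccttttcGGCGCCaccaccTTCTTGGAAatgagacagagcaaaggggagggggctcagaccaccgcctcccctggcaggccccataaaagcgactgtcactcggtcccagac
Both strands were searched, and the 2 matches do not overlap. They begin 105 and 93 bases before the start, respectively. GGCGCC occurs in 16.4% of the 35116 promoter windows, and among the members also in those of TFRC, ACO1 and IREB2, while TTCNNNGAA occurs in 6.57% and in the window of HAMP but not in those of the other 7 members matched. The antioxidant response patterns TGACNNNGC and TGAGNNNGC, found in 10.9% and 14.8% of all windows, were not among the letters of any window of the 8 members. Only these 250 bases were searched, and FTH1 had no window. The absence of a match therefore says nothing about sites elsewhere or about control by NRF2.

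Of the sensors of iron, ACO1 fell under compound 4 and IREB2 did not pass the threshold, and the difference between the genes was not tested. ACO1 (ENSG00000122729, chr9:32384603-32454769, plus strand), which is an aconitase while it holds an iron-sulfur cluster, had 50.2 and 49.99 CPM under DMSO, 35.3 and 33.2 under compound 4, 38.5 and 43.8 under compound 5, and 43.6 and 42.2 under compound 6. All treated libraries were below the DMSO libraries. Its log2-fold change was −0.55 ± 0.12 (adjusted p = 0.0215) under compound 4, −0.28 ± 0.12 (0.149) under compound 5 and −0.23 ± 0.12 (0.337) under compound 6. Its call under compound 4 was lost without DMSO replicate 1 (adjusted p = 0.0948), DMSO replicate 2 (0.164) or compound 4 replicate 2 (0.133), with log2-fold changes between −0.55 and −0.51. IREB2 (ENSG00000136381, chr15:78437431-78501456, plus strand), which is controlled by degradation of its protein, had between 109 and 130 CPM over all 8 libraries, and those of each compound overlapped those of DMSO. Its log2-fold changes were 0.02 (adjusted p = 0.916), 0.09 (0.648) and 0.06 (0.833), with 95% intervals between −0.24 and 0.35. The ratio of IREB2 to ACO1 per kilobase was 2.65 ± 0.133 under DMSO and 3.95 ± 0.418 under compound 4, with 3.46 ± 0.71 and 3.22 ± 0.145 under compounds 5 and 6.

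Next, the compounds were compared with each other over the 10 members, which gives 30 differences. Between compounds 4 and 6, which differ in their tert-butyl and cyclohexyl groups, 0 members and 0% of all genes passed the threshold in edgeR. Between compounds 4 and 5, 0 members passed, against 0.313% of all genes, and between compounds 6 and 5, 0 members passed, against 1.03%. At an unadjusted p under 0.05, the numbers of members were 1, 3 and 1, beside 7.05%, 16.2% and 18.5% of all genes tested, and the Wald test of DESeq2 called 0, 0 and 1. The member called by DESeq2 was TFRC, which was lower under compound 6 than under compound 5 by a log2 difference of −0.42 ± 0.11 (edgeR adjusted p = 0.1; DESeq2 adjusted p = 0.0215). Between compounds 4 and 5, TFRC differed by −0.34 ± 0.11 (adjusted p = 0.2), and both pairs of libraries lay below those of compound 5. HAMP was at a log2 difference of 0.90 between compounds 4 and 5, with a 95% interval from 0.02 to 1.79 (adjusted p = 0.299). The HAMP interval between compounds 4 and 6 ran from −0.20 to 1.57, and that of SLC40A1 from −0.17 to 1.13, so differences of more than 2-fold are within them. For the ferritin chains the intervals of all 3 pairs lay between −0.23 and 0.46, and for IREB2 between −0.33 and 0.23. ACO1 was lower under compound 4 than under compound 6 by −0.33 ± 0.12 (adjusted p = 0.587).

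**Figure D3:**
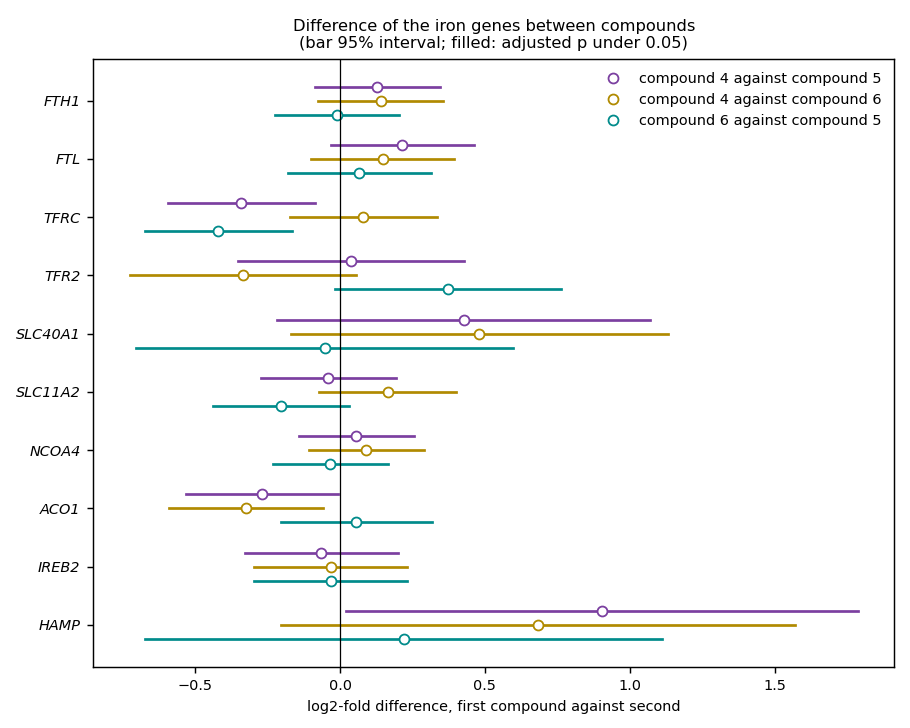
Log2 difference of each of the 10 genes between compounds 4 and 5 (purple), 4 and 6 (yellow) and 6 and 5 (teal) on the horizontal axis, with bars for the 95% interval from the edgeR fit. All symbols are open, since 0 members had an adjusted p under 0.05, and the TFRC symbols at −0.34 and −0.42 are the farthest below 0.

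Other genes that handle iron were taken from lists written by hand. Of 21 genes in the control of hepcidin, 18 were tested. Under compound 4, 4 of them rose and 1 fell, beside 5.6% and 3.91% of all genes tested. ATOH8, a transcription factor that acts on HAMP, had 1.74 and 1.84 CPM under DMSO and 7.88 and 9.50 under compound 4, a log2-fold change of 2.27 ± 0.26 (adjusted p = 0.00303). IL6R, the receptor of interleukin-6, rose by 1.26 ± 0.15 (0.00391), the BMP receptor gene ACVR1 by 0.94 ± 0.22 (0.0292) and the ligand gene BMP6 by 1.02 ± 0.27 (0.0443). NEO1, a receptor that binds hemojuvelin, changed by −0.47 ± 0.13 (0.0439), and HJV, the gene of hemojuvelin, was not among the tested genes. The other tested genes of the list, among them ID1, SMAD6, SMAD7 and STAT3, did not pass the threshold under compound 4. The part of any gene of this list in the change of HAMP was not tested. Under compound 5, IL6R rose by 0.97 ± 0.15 (0.00976) and was the 1 gene of the 18 to pass, beside 8.3% of all genes tested. Under compound 6, 0 of 18 passed in edgeR (4 at an unadjusted p under 0.05, beside 18.6% of all genes tested). There BMP6 had the highest log2-fold change at 1.23 (adjusted p = 0.0668) and TMPRSS6 the lowest at −0.77 (0.536). The value of TMPRSS6 rests on few counts, with a mean of 1.38 CPM under DMSO. ATOH8 also separated the compounds, at a log2 difference of 2.58 ± 0.26 (0.00438) between compounds 4 and 5. The medians of this list were 0.12, −0.02 and 0.13 for compounds 4, 5 and 6.

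Of 11 genes of the transferrin cycle and other iron import, 8 were tested. TF, which encodes transferrin itself, fell by 0.52 ± 0.12 on the log2 scale under compound 4 (adjusted p = 0.0278), from 6464 ± 474 to 4520 CPM, and was the 1 gene of this list to pass. Under compounds 5 and 6, 0 of 8 passed in edgeR. At an unadjusted p under 0.05 there were 0 and 2, beside 28.4% and 18.6% of all genes tested. SLC39A8 and SLC39A14, importers of the ZIP family, were at the ends of the list under compound 5 (−0.63 and 0.10). The reductase genes CYBRD1 and STEAP2 were at its ends under compound 6 (−0.66 and 0.38). Under DMSO, SLC39A8 had a mean of 0.954 CPM and CYBRD1 of 4.19 CPM, so their values rest on few counts. Of 10 genes of iron oxidases, chaperones and ferritin turnover, 7 were tested. TAX1BP1, an autophagy receptor that takes part in ferritin turnover with NCOA4, rose by 0.77 ± 0.12 (0.00841) under compound 4 and 0.71 ± 0.12 (0.0132) under compound 5, and had a log2-fold change of 0.61 (0.0575) under compound 6. PCBP1, a chaperone that delivers iron to ferritin, rose by 0.45 ± 0.09 (0.0232) under compound 5, and was lower under compound 6 than under compound 5 by −0.49 (0.0453). Under compound 6, 0 of 7 passed (1 at an unadjusted p under 0.05, beside 18.6% of all genes tested), and the ferroxidase gene CP had the lowest value at −0.18 (0.809).

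The genes that build iron-sulfur clusters did not pass the threshold in edgeR under any of the compounds. In the mitochondrial list, 16 of 16 genes were tested and 4, 4 and 2 had an unadjusted p under 0.05 under compounds 4, 5 and 6, which is no larger a share than the 27.5%, 28.4% and 18.6% of all genes tested. The iron importer of mitochondria, SLC25A37, was the highest member each time (0.45, 0.57 and 0.48) and the ferredoxin reductase FDXR the lowest (−0.42, −0.56 and −0.44). In the cytosolic list, 9 of 9 were tested and 0, 1 and 1 had an unadjusted p under 0.05, with MMS19 highest under compounds 4 and 5 (0.22 and 0.36), NDOR1 highest under compound 6 (0.10), NUBP2 lowest under compounds 4 and 6 (−0.26 and −0.34) and CIAO2A lowest under compound 5 (−0.05). Of 5 other mRNAs with a known iron-responsive element, 4 were tested, 2 had an unadjusted p under 0.05 under each compound, beside those same shares of all genes, and 0 passed. CDC42BPA was highest (0.48, 0.46 and 0.48) and CDC14A lowest (−0.02, 0.01 and −0.17).

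Antioxidant response genes were examined because they share the factor NRF2 with the ferritin genes. Of 10 antioxidant response genes, 7 rose and 1 fell under compound 4, beside 5.6% upwards and 3.91% downwards of all genes tested. The gene that fell was at a log2-fold change of −0.70. Under compound 5, 6 rose, beside 5.35% upwards, and under compound 6, 1 rose, beside 0.493%. GCLM, SRXN1 and TXNRD1, which serve glutathione and thioredoxin, had the lowest adjusted p among those that rose under compound 4, at log2-fold changes of 1.10 (0.0109), 1.12 (0.0113) and 0.98 (0.0169). Under compound 5 these were OSGIN1 at 1.69 (0.00826), SRXN1 at 1.30 (0.00847) and GCLM at 1.21 (0.00958). SLC7A11, the cystine transporter, rose under all 3 compounds, by 1.14, 1.70 and 1.67 (adjusted p = 0.0366, 0.0114 and 0.0478). HMOX1, the enzyme that releases iron from heme, rose by 0.65 ± 0.14 (0.0222) under compound 4. The medians of this list were 0.97, 1.20 and 0.64. Of the iron genes, the NRF2 targets FTH1, FTL and SLC40A1 had log2-fold changes of 0.36, 0.44 and 1.15 under compound 4. Under compound 5 they were at 0.24, 0.23 and 0.72 and under compound 6 at 0.23, 0.29 and 0.67, which did not pass the threshold in edgeR. The part of NRF2 in these changes was not tested. Beside these changes, APOA1, APOB and AFP among the hepatocyte markers fell under compound 4 (−0.90, −0.61 and −0.71) and CD68 rose (0.80), while FGB rose (0.53) and ACTA2 fell under compound 5.

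**Figure D4:**
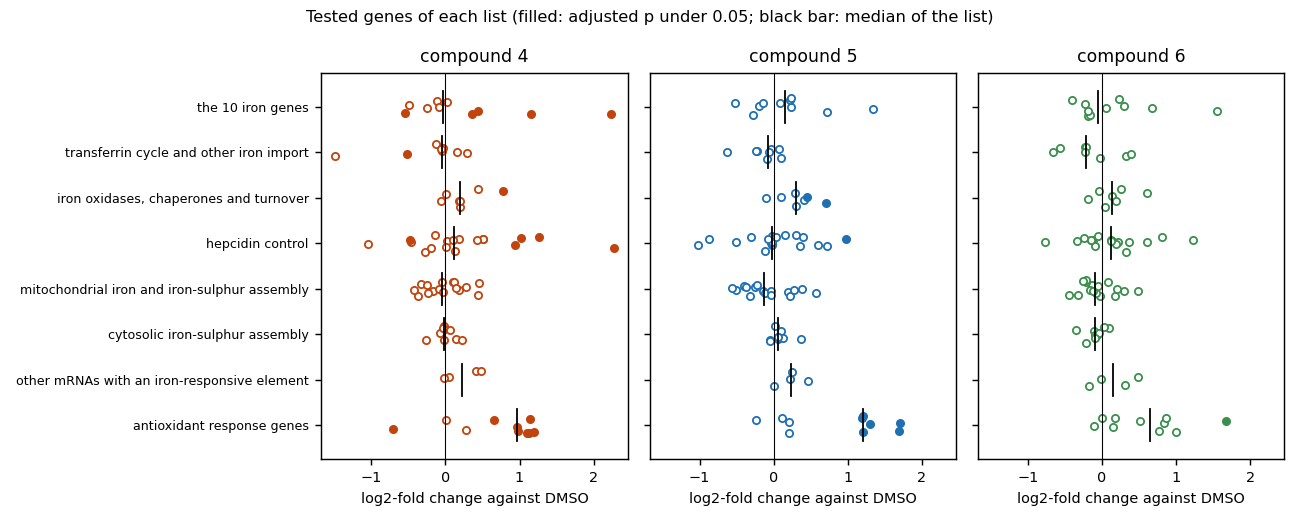
Log2-fold change against DMSO (horizontal axes) of every tested gene of the 10 iron genes and of 7 further lists under compounds 4, 5 and 6, with filled symbols for an adjusted p under 0.05 in edgeR and a black bar for the median of each list. Filled symbols are most frequent among the antioxidant response genes, and the iron-sulfur lists hold none.

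Finally, the genes most like 4 of the members over the 8 libraries were sought by Pearson correlation of log2(CPM + 0.5). Among those most like FTH1 were ATP6V1E1 (r = 0.98) and ZFPL1 (0.97), and FTL was closest to RPL17 (0.98), NKIRAS2 (0.98) and C18orf21 (0.97). TFRC was closest to WASF3 (0.98), NFKB1 (0.97) and SLC39A9 (0.97), and SLC40A1 to TMEM140 (0.99), DNAJC12 (0.98) and CLN8 (0.98). These are among the highest of 13400 genes over 8 points that share their libraries and are given as a description.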

How the data were processed

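RNA from CYP2C19-overexpressing HepG2 cells was sequenced by the authors from directional paired-end libraries. The authors estimated transcript abundance with Salmon 1.5.0 (version per the submitters' processing notes) against GENCODE and GRCh38, obtained gene-level values with tximeta, and deposited these expected counts as whole numbers that were not normalized. The estimates for genes that share sequence, such as ferritin and its pseudogenes, are split by Salmon, and strand handling is not given in the sources used here. The labels mark 2 libraries (replicate 1 of DMSO and of compound 4) as merged, each with 2 sample numbers. What was merged is not stated.

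The deposited counts were rounded where needed and analyzed in R 4.3.3 with edgeR 4.0.16 (TMM, filterByExpr at a minimum count of 10, quasi-likelihood test in 1 fit of 4 groups without a block, Benjamini-Hochberg adjustment, threshold 0.05). The SE is the log2-fold change divided by the root of the F statistic. Replicates differed by more than counting noise, with mean chi-square values per gene between 8.23 and 19.2. As alternatives, DESeq2 1.42.0 was used for a Wald test, and the edgeR fit was repeated with DESeq2 size factors, no filter, at least 10 counts in every sample, a fit of the 4 samples compared, the day as a block, and leaving out each of the 8 libraries. The pairing comes from the day in the labels, and the difference between replicates 2 and 1 correlated between −0.16 and 0.30 over the pairs of groups. A permutation of 2 against 2 samples cannot pass the threshold. The test was also run on simulated data with known changes.

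The 10 members and the other lists were chosen with earlier results of these data known. All members are named. Of each other list, up to 3 genes past the threshold in each direction are named, or the highest and lowest where 0 passed, with some further genes that were chosen after their values were seen. A few genes chosen in these ways are not reported here. Positions and transcript lengths are from GENCODE 29 (GRCh38), and levels per kilobase use the annotated principal transcript. Promoters are from RefSeq.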

Additional observations from a re-analysis of the deposited data

How the results depend on the processing

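Under 14 alternatives, the members past the threshold under compound 4 (5 as reported) numbered 3 with at least 10 counts in every sample and between 0 and 5 with a library left out. The count was 0 when either day 2 library (DMSO or compound 4) was left out, 1 after leaving out the day 1 library of DMSO and 2 after leaving out that of compound 4, and 3 without either compound 6 library. Under compound 5 (0 as reported) they numbered 3 without a filter, 1 with the replicate block (TFR2) and between 0 and 1 with a library left out. Under compound 6 (0 as reported) they numbered 3 without a filter, 1 in the fit of 4 samples (SLC11A2) and between 0 and 1 with a library left out. Between compounds (0 as reported), 1 was called without a filter in each of the 3 pairs and 1 by DESeq2 between compounds 6 and 5. Under compound 4, the members past the threshold also numbered 6 without a filter, 6 with the replicate block and 4 in the fit of 4 samples. The replicate block changed no call of a member other than those of TFR2 under compounds 4 and 5.

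Some values that did not pass the threshold changed sign. For FTH1 between compounds 6 and 5 the log2 difference was 0.0021 with at least 10 counts in every sample, and for SLC40A1 between the same compounds it was 0.0036 with the replicate block. With a library left out, IREB2 ranged from −0.0405 to 0.0743 under compound 4, −0.0428 to 0.207 under compound 5 and −0.0257 to 0.128 under compound 6, and TFR2 from −0.35 to 0.0266 under compound 6. Between compounds 4 and 5, the ranges were −0.149 to 0.198 for TFR2, −0.0149 to 1.04 for SLC40A1 and −0.182 to 0.0633 for IREB2, and between compounds 4 and 6 −0.102 to 0.047 for IREB2. Between compounds 6 and 5, they were −0.114 to 0.082 for FTH1, −0.0453 to 0.185 for FTL, −0.494 to 0.551 for SLC40A1, −0.0324 to 0.152 for ACO1, −0.148 to 0.0889 for IREB2 and −0.0334 to 0.512 for HAMP. The causes were not tested.

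The numbers of all genes past the threshold, 1275, 1112 and 77 under compounds 4, 5 and 6, were 2383, 2431 and 1355 without a filter and 43, 46 and 2 without DMSO replicate 2. For compound 6 they were 518 by DESeq2, 47 with its size factors, 198 with at least 10 counts in every sample and 1023 in the fit of 4 samples. Between compounds 4 and 5 (42 as reported) they were 194 by DESeq2, 750 without a filter, 65 with at least 10 counts in every sample, 10 in the fit of 4 samples and 128 with the block. Between compounds 4 and 6 (0 as reported, 945 at an unadjusted p under 0.05) they were 60, 259, 5, 0 and 1, and between compounds 6 and 5 (138 as reported) 370, 990, 207, 49 and 269. With 1 library left out, they ranged from 43 to 1681, 46 to 1814 and 2 to 432 under compounds 4, 5 and 6, and from 9 to 25, 0 to 13 and 0 to 105 between compounds 4 and 5, 4 and 6, and 6 and 5. A lone sample left in a group is assumed to vary like the other groups. Only 2 samples per group limit the precision, and HAMP in particular rests on DMSO libraries that differ from each other.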
